A study of Homo sapiens with 12 samples.

Results

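The genes described here are the 40 human genes for the aminoacyl-tRNA synthetases and their scaffold proteins, taken from the deposited gene table by name. They are 40 of 58735 genes in the table, and all 40 were among the 16046 that passed the filter on low counts. By their roles they fall into 21 cytosolic enzymes (or enzyme subunits), 16 mitochondrial enzymes, whose symbols end in 2, and 3 complex scaffolds (AIMP1, AIMP2 and EEF1E1). The level of each gene and its change were compared over 4 groups of 3 libraries. All 12 libraries were made from TAMs (tumor-associated macrophages), here the human monocytic leukemia line THP-1 differentiated with PMA and cocultured with the pancreatic cancer line AsPC-1. In the control group (NC) the cancer cells carried an empty vector, and in OE-MMP28 they overexpressed the metalloproteinase MMP28. In the anti-IL-8 and anti-VEGFA groups, a neutralizing antibody to that secreted factor was added on top of MMP28 overexpression. No modification of the macrophages themselves is described, a control antibody is not named for any group, and 1 macrophage line and 1 cancer line stand for the cell types. The labels do not say that the 3 libraries of a group came from separate cultures, so the p-values measure only the spread between these libraries. In bulk libraries a lower level in every cell and fewer cells with the transcript cannot be told apart.

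Aminoacyl-tRNA synthetases join each amino acid to its tRNA and so supply the ribosome with charged tRNAs. Nuclear genes encode separate sets for the cytosol and for the mitochondria, although GARS and KARS each serve both compartments, and in the cytosol several enzymes sit with the AIMP scaffolds in a multi-synthetase complex. Uncharged tRNA activates the kinase GCN2, the factor ATF4 is then translated, and ATF4 is known to raise transcription of many cytosolic synthetase genes together with genes of amino acid uptake and synthesis. WARS, the tryptophanyl-tRNA synthetase, is also known as an interferon-induced gene in macrophages.

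Library totals lay between 15852346 and 18701195 counts, at which 3 counts equal 0.160 to 0.195 CPM (counts scaled to a common library total, with TMM factors between libraries). Of the macrophage markers, ITGAM, ITGAX, CD14, CSF1R, SPI1 and the rest were detected in every library except CD68, which had at most 5 counts. The macrophage markers summed to 2731 to 4494 CPM against 3.13 to 6.40 CPM for 12 epithelial markers, among which EPCAM had 0 counts in all 12 libraries. Mitochondrially encoded genes took 6.92% to 17.8% of counts, and the highest share was in anti-VEGFA replicate 2. Libraries of the same group differed among themselves with sequence composition, most of all in OE-MMP28. Over the 40 genes, the deviation from the group mean correlated with GC content (Spearman) at -0.81 in OE-MMP28 replicate 2 and 0.67 in replicate 3. Over all tested genes the values were -0.60 and 0.46. Anti-IL-8 replicates 2 and 3 gave -0.61 and 0.52 over the 40 genes, and -0.35 and 0.26 over all tested genes. Anti-VEGFA replicates 1 and 3 gave 0.39 and -0.35 over the 40 genes, and control libraries lay between -0.18 and 0.20.

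The promoters carried a feature that the choice of genes did not use. RefSeq promoters (GRCh38.p14, 250 bases before to 50 after each start) were found for 33 of the 40 genes, and those of DARS, LARS, VARS, YARS, TARSL2, AARS2 and VARS2 were not used here. The 8 letters TGATGNAA, the core of the C/EBP-ATF response element that ATF4 binds, were searched on both strands. They were present in 7 of 16 cytosolic enzymes with a promoter, 1 of 14 mitochondrial enzymes (YARS2) and 0 of 3 scaffolds. Among all tested genes with a promoter 2.85% held them, as did 3.62% of all 35116 windows. The 7 cytosolic sites are shown because the changes of these genes are set beside those of genes without the element, each as 30 bases on the strand on which the element reads forward, with the element in capitals.
AARS: tctaacttggcTGATGCAActgcgagaaaa
CARS: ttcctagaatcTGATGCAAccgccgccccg
GARS: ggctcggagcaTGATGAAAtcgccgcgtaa
IARS: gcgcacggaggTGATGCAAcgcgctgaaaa
MARS: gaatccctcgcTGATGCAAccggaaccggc
NARS: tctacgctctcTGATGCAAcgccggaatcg
TARS: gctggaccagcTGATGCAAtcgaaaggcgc
The AARS site lies at chr16:70289675-70289704 and the CARS site at chr11:3057407-3057436, both printed on the plus strand opposite to the gene. The IARS site lies at chr9:92293692-92293721, likewise on the plus strand against a gene on the minus strand. The GARS site at chr7:30594834-30594863, the MARS site at chr12:57488053-57488082 and the TARS site at chr5:33440956-33440985 are printed on the minus strand of genes on the plus strand. The NARS site at chr18:57621804-57621833 reads in the direction of its gene on the minus strand. A match is a description of the letters and was not tested as a binding site.

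Per length, the cytosolic enzymes were the more abundant class. Their median FPKM (fragments per kilobase of gene, scaled to library size by the authors) was 29.3 over the means of 12 libraries, against 2.84 for the mitochondrial enzymes and 5.41 for the scaffolds. WARS had the highest level at 93.3 FPKM, with a range over libraries of 73.9 to 114, followed by SARS (seryl) at 86.7 and a range of 61.6 to 114. The ranges of these 2 genes overlapped, and so did those of nearly all neighbors in the order. TARSL2, a second threonyl enzyme, was the lowest cytosolic gene at 0.863 FPKM. IARS2 (isoleucyl) was the highest mitochondrial gene at 25.6 FPKM, above the level of 10 cytosolic enzymes. FARS2 (phenylalanyl) at 0.728 FPKM and SARS2 (seryl) at 0.117 FPKM stood at the bottom, and theirs was the break in the order where the ranges did not overlap. SARS2 had 1 to 13 counts per library, and the gene AC011455.2 covers it on the same strand over 15493 bases, so that reads shared by both genes may not be in its count. Of the 40 genes, 15 overlap another protein-coding gene, 13 of them on the opposite strand. Of the scaffolds, AIMP1 was the highest at 9.86 FPKM and EEF1E1 the lowest at 2.60 FPKM.

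**Figure D1:**
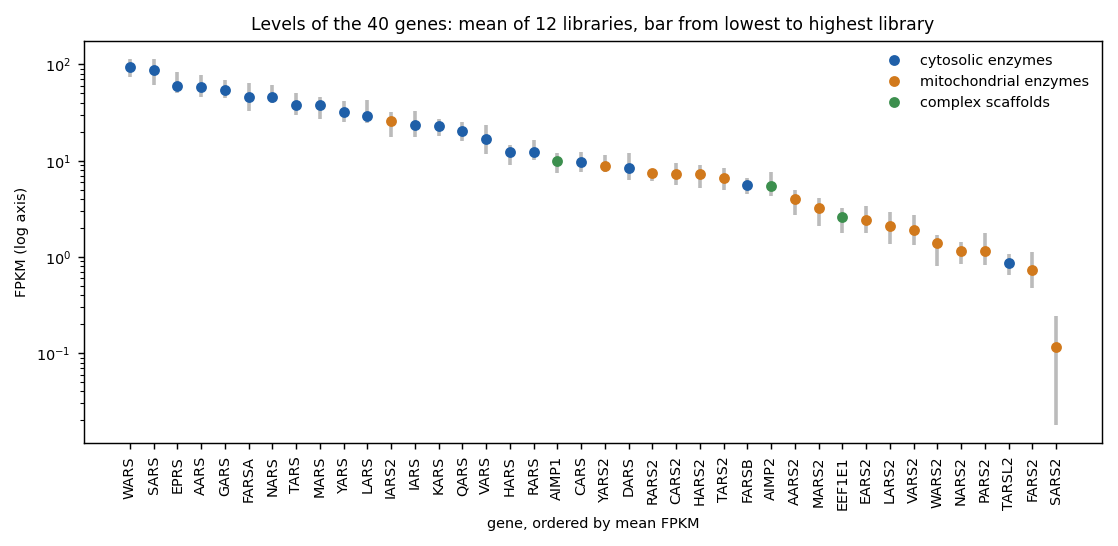
Mean FPKM over 12 libraries (points, log axis) for the 40 genes, ordered by mean and colored by class, with gray bars from the lowest to the highest library. Cytosolic enzymes fill the upper ranks from WARS at 93.3 FPKM, IARS2 is the highest mitochondrial enzyme at 25.6 FPKM, and SARS2 is the lowest gene at 0.117 FPKM.

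Tested for any difference among the 4 groups, 14 of the 40 genes passed an adjusted p of 0.05 (the quasi-likelihood test of edgeR, adjusted for all tested genes by the method of Benjamini and Hochberg), against 17.2% of all tested genes. These were the 11 cytosolic enzymes SARS, MARS, YARS, TARS, VARS, EPRS, GARS, LARS, RARS, NARS and CARS and the 3 mitochondrial enzymes VARS2, EARS2 and TARS2. The smallest adjusted p-values were those of VARS2 (valyl) at 6.9e-04, SARS at 0.00506 and EARS2 (glutamyl) at 0.0125. SARS and VARS2 stayed past the threshold without any single library. The count of 14 was 2 to 4 without a control library (5.56% to 7.39% of all genes) and 5 without anti-IL-8 replicate 1 or 3 (7.86% and 7.32%). It was 6 without OE-MMP28 replicate 1 (11.1%), 8 without anti-VEGFA replicate 3 (11.3%) and 24 without OE-MMP28 replicate 3 (31.4%). At an unadjusted p of 0.05, 26 of the 40 genes passed, against 37.9% of all genes. Summed over the class, cytosolic enzymes took 3561 ± 187 CPM in control and 4163 ± 122 in OE-MMP28 (mean ± SD, n = 3). They took 4076 ± 177 CPM in the anti-IL-8 group and 3495 ± 187 CPM in the anti-VEGFA group. The OE-MMP28 sums, at 4023 to 4241 CPM, lay above all control sums, which reached 3737, and above all anti-VEGFA sums, which reached 3650. Mitochondrial enzymes summed to 353 ± 4.55 CPM in control, 375 ± 14.1 in OE-MMP28, 380 ± 17.5 in the anti-IL-8 group and 356 ± 13.7 in the anti-VEGFA group.

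**Figure D2:**
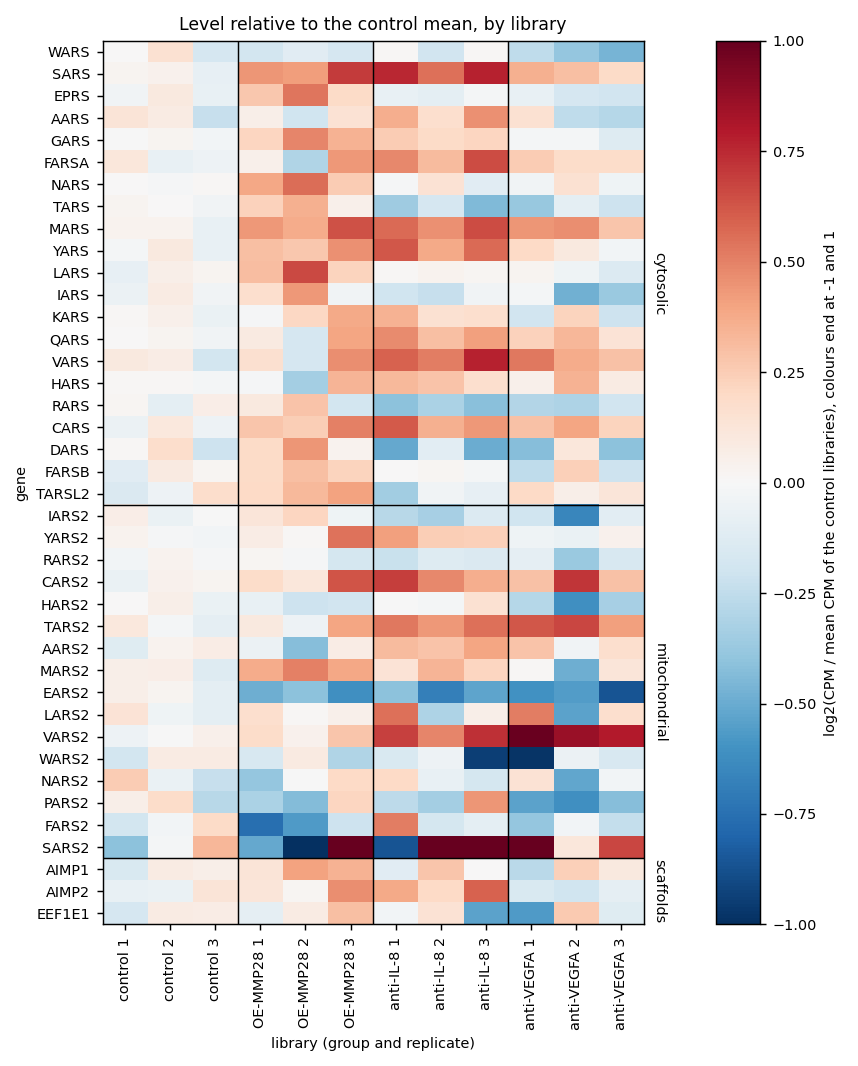
Level of each gene (rows, by class and then by mean FPKM) in each of the 12 libraries (columns) as log2 of CPM over the mean of the control libraries, with colors ending at -1 and 1. SARS and MARS are above the control mean in all 9 other libraries and EARS2 is below it in all 9, while the row of SARS2 rests on 1 to 13 counts.

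The first comparison asked how the macrophages differed when the cancer cells overexpressed MMP28. In OE-MMP28 against control 20 of the 21 cytosolic enzymes had a positive log2 fold change, with a median of 0.23 against 0.023 over all tested genes. SARS and MARS (methionyl) passed the adjusted threshold, both higher, which makes 2 of the 40 genes against 3.16% of all tested genes (0.523% higher and 2.64% lower). Past the unadjusted threshold were 11 of the 40 genes, 10 of them higher, against 14.5% of all genes (5.93% higher and 8.61% lower). The libraries of the groups did not overlap for 17 of the 40 genes (14 higher, 3 lower), against 21.3% of all genes (9.63% higher and 11.6% lower).

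SARS, which charges serine, measured 260, 263 and 241 CPM in control and 346, 341 and 413 CPM in OE-MMP28. All 3 OE-MMP28 libraries were above all 3 controls, and replicate 3 was the highest. The mean rose from 255 ± 12.0 to 367 ± 40.1 CPM (n = 3), a log2 fold change of 0.53 (SE 0.12, edgeR adjusted p 0.0201). MARS, which charges methionine, including the initiator tRNA, measured 211, 211 and 195 CPM in control and 277, 266 and 319 CPM in OE-MMP28. Its groups did not overlap either, and the log2 fold change was 0.49 (SE 0.12, adjusted p 0.0294). On the opposite strand MARS overlaps DDIT3, itself a gene of the shortage response, by 982 bases and ARHGAP9 by 13370 bases. The strand setting of the counting is not given in the sources used here, so reads from overlapping genes cannot be told apart. DDIT3 had 743 to 1339 counts and a log2 fold change of -0.14 against 3288 to 5114 counts for MARS. Both calls depended on which libraries were included. With any 1 of the 3 control libraries, OE-MMP28 replicate 1 or OE-MMP28 replicate 3 left out, neither passed. The edgeR adjusted p-values were up to 0.115 for SARS and 0.144 for MARS, and 1.79% to 2.6% of all genes passed. The fold changes stayed between 0.41 and 0.58. MARS also lost its call with library totals.

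The other cytosolic enzymes past the unadjusted threshold were NARS, LARS, GARS, CARS, YARS and EPRS, and for each of them the OE-MMP28 libraries lay above the controls. NARS (asparaginyl) measured 174, 172 and 175 CPM in control and 227, 256 and 208 CPM in OE-MMP28, a log2 fold change of 0.41 (SE 0.12, adjusted p 0.0860). LARS (leucyl), an enzyme also known as a leucine sensor of the mTORC1 pathway, measured 210, 232 and 227 CPM in control and 277, 353 and 260 CPM in OE-MMP28, a log2 fold change of 0.41 (SE 0.13, adjusted p 0.0995). GARS (glycyl) measured 206, 211 and 202 CPM in control and 240, 289 and 263 CPM in OE-MMP28, a log2 fold change of 0.36 (SE 0.11, adjusted p 0.110). For these 3 genes OE-MMP28 replicate 2 was the highest library, unlike SARS and MARS, for which it was replicate 3. CARS (cysteinyl) gave 0.35, YARS (tyrosyl) 0.35 and EPRS (the fused glutamyl and prolyl enzyme) 0.34, each with SE 0.12 and adjusted p-values of 0.158 to 0.167. TARSL2, the least abundant cytosolic enzyme, measured 3.42, 3.64 and 4.26 CPM in control and 4.34, 4.74 and 4.99 CPM in OE-MMP28 (0.31, SE 0.19, adjusted p 0.496). The lone cytosolic enzyme with a negative value was WARS, at -0.16 (SE 0.13, adjusted p 0.631). With offsets for GC content and transcript length, added after the data were seen, 8 genes passed the adjusted threshold in place of 2, against 5.93% of all genes. They were the 7 cytosolic enzymes SARS, MARS, LARS, NARS, YARS, GARS and EPRS, higher by 0.33 to 0.50, and EARS2, lower.

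The cytosolic enzymes were also grouped by known regulation and by complex membership, as a description of the values. Of the 12 cytosolic synthetases known as targets of the amino acid shortage response, 11 were higher in OE-MMP28, with a median log2 fold change of 0.35. The list was chosen with earlier results of these data known. Of its genes 8 passed the unadjusted threshold, all higher, against 14.5% of all tested genes (5.93% higher). The 9 other cytosolic enzymes were higher too, with a median of 0.17, and 0 of them passed it in edgeR or the adjusted threshold in DESeq2. The 7 cytosolic genes with the promoter element shown above were all higher, with a median of 0.35. Of the 9 with a promoter without it 8 were higher, with a median of 0.12. In anti-IL-8 against control the medians with and without the element were 0.22 and 0.22, and in anti-VEGFA against control -0.054 and -0.044. Against OE-MMP28 they were -0.13 and 0.10 with anti-IL-8, and -0.38 and -0.24 with anti-VEGFA. These differences were not tested. In OE-MMP28 against control the 8 enzymes of the multi-synthetase complex had a median of 0.22 and the 13 outside it 0.24. Class I and class II enzymes, which differ in the fold of the catalytic domain and were counted here with the mitochondrial enzymes (18 genes each), had medians of 0.17 and 0.18.

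The mitochondrial enzymes divided evenly in OE-MMP28, with 8 higher and 8 lower and a median log2 fold change of 0.014. The scaffolds were all 3 higher, with a median of 0.21, and 0 of these 19 genes passed the adjusted threshold in edgeR, in limma voom or in limma on FPKM. At the unadjusted threshold MARS2 (0.42), CARS2 (0.32) and EARS2 (-0.50) passed. EARS2, which charges mitochondrial tRNAs for glutamate, measured 19.5, 19.1 and 17.5 CPM in control and 13.4, 14.1 and 12.2 CPM in OE-MMP28. The groups were well apart, and the adjusted p was 0.0625 (SE 0.14). In DESeq2 EARS2 passed at 0.0387, and with the GC and length offsets at 0.0253. EARS2 overlaps UBFD1 on the opposite strand by 370 bases, with 193 to 331 counts for EARS2 and 874 to 1240 for UBFD1. AIMP1, a scaffold that also circulates as a cytokine, measured 27.7, 32.6 and 32.2 CPM in control and 33.8, 40.8 and 39.3 CPM in OE-MMP28 without overlap (0.30, SE 0.15, adjusted p 0.384). EEF1E1, the least abundant scaffold, measured 5.01, 5.95 and 5.92 CPM in control and 5.28, 5.96 and 6.93 CPM in OE-MMP28, with overlap (0.10, SE 0.22, adjusted p 0.892). SARS2 had 3, 4 and 5 counts in control and 3, 1 and 10 counts in OE-MMP28.

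Other genes of the shortage response moved in part with the synthetases. Of 38 tested genes of amino acid uptake, amino acid synthesis and stress factors, 27 were higher in OE-MMP28, 4 passed the adjusted threshold higher and 1 lower, against 0.523% and 2.64% of all genes. Among them PHGDH, the first enzyme of serine synthesis, rose by 0.85 (SE 0.17, adjusted p 0.00734), the lipoprotein receptor VLDLR by 0.76 (SE 0.14, 0.00396) and the hormone STC2 by 0.66 (SE 0.15, 0.0150). ATF3, a stress-induced factor, fell by 0.51 on the log2 scale (SE 0.11, adjusted p 0.0150). Of 12 sensors and kinases of that response, the 1 called gene was EIF2AK2, which is induced by interferon and fell by 2.02. Of 6 cytosolic elongation factors and of 16 mitochondrial translation factors, 0 passed the adjusted threshold in edgeR, and 0 and 1 the unadjusted one.

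The question for the anti-IL-8 group was what neutralizing IL-8 changed on top of MMP28 overexpression. In anti-IL-8 against OE-MMP28, 0 of the 40 genes passed the adjusted threshold in edgeR, as did 0% of all tested genes; the smallest adjusted p among the 40 was 0.0627. At the unadjusted threshold 16 of the 40 passed, 7 higher and 9 lower, against 29.3% of all genes (13.4% higher and 15.9% lower). The libraries did not overlap for 17 of the 40 (7 higher, 10 lower), against 29% of all genes (13.7% and 15.3%). DESeq2 called 9 of the 40 and 13.2% of all genes, limma voom 0 and limma on FPKM 0. The lower ones were mostly cytosolic. TARS (threonyl) measured 270, 294 and 238 CPM in OE-MMP28 and 179, 204 and 169 CPM with anti-IL-8, a log2 fold change of -0.54 (SE 0.13, adjusted p 0.0627). DARS (aspartyl) measured 41.2, 49.0 and 37.1 CPM in OE-MMP28 and 25.4, 33.6 and 25.6 CPM with the antibody (-0.59, SE 0.17, adjusted p 0.0632). RARS (arginyl) gave -0.46, EPRS -0.40, NARS -0.40 and LARS -0.39, with the libraries of the groups apart for each. On the other side VARS (0.45), VARS2 (0.47), AARS2 (0.45) and FARS2 (0.60) had higher values. Without OE-MMP28 replicate 3, 16 of the 40 genes passed the adjusted threshold, against 25% of all genes.

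Which synthetases were higher and which lower with anti-IL-8 followed the GC content of their transcripts. Over the 40 genes, the Spearman correlation of the log2 fold change with the GC content of the longest transcript was 0.86, and over all tested genes it was 0.70. The points share the 6 libraries of the comparison. Of the 20 genes with the lower GC content 16 had negative values, with a median of -0.24, and of the other 20 genes 19 had positive values, with a median of 0.19. The unadjusted calls did not mix: the highest GC content among the lower genes was 45.3% (TARSL2), and the lowest among the higher genes was 52.4% (FARS2). The correlation was 0.88 within the cytosolic enzymes and 0.85 within the mitochondrial enzymes. With the GC and length offsets 4 of the 40 genes passed the unadjusted threshold in place of 16, against 10.4% of all genes, and the correlation was 0.34. The offsets take out any trend with GC content, whatever its source, so a lower correlation follows from how they were built. In OE-MMP28 against control the correlation without the offsets was -0.12.

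The same question was asked for VEGFA, and here most cytosolic enzymes had lower values than in OE-MMP28. Of the 21, 17 had negative values, with a median log2 fold change of -0.24 against -0.0015 over all tested genes. All 12 known shortage targets were lower, with a median of -0.32, and 7 of them passed the unadjusted threshold. The adjusted threshold was passed by 1 of the 40 genes, against 0.343% of all genes (0.312% higher and 0.0312% lower), and this was VARS2, which was higher. Unadjusted, 14 of the 40 passed, 12 of them lower, against 18.8% of all genes (10.4% higher and 8.44% lower). The libraries did not overlap for 16 of the 40 (2 higher, 14 lower), against 18.1% of all genes (9.11% and 8.97%). Without OE-MMP28 replicate 3, 10 of the 40 passed the adjusted threshold, against 8.48% of all genes.

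EPRS showed the pattern by library. It measured 314, 344 and 305 CPM in control, 387, 466 and 367 CPM in OE-MMP28, 305, 300 and 316 CPM with anti-IL-8 and 304, 286 and 281 CPM with anti-VEGFA. All OE-MMP28 libraries were above the other 9, anti-IL-8 overlapped with control, and anti-VEGFA lay just below it. Against OE-MMP28 the log2 fold change was -0.49 (SE 0.12, adjusted p 0.0764) with anti-VEGFA and -0.40 (SE 0.12, 0.0643) with anti-IL-8. LARS measured 228, 217 and 203 CPM with anti-VEGFA and 225, 229 and 226 CPM with anti-IL-8, all below the lowest OE-MMP28 library at 260 CPM. NARS, at 170, 193 and 169 CPM with anti-VEGFA, was likewise below 208 CPM, the lowest OE-MMP28 library. GARS was at 204, 204 and 189 CPM with anti-VEGFA, below all OE-MMP28 libraries, whereas its anti-IL-8 libraries, at 247, 236 and 240 CPM, overlapped with OE-MMP28. These values share their OE-MMP28 libraries with the comparison against control, so a high OE-MMP28 library enters both with opposite sign. With the offsets the cytosolic median in anti-VEGFA against OE-MMP28 was -0.18, and 11 genes were lower past the unadjusted threshold. The correlation with GC content was 0.65 without the offsets and 0.22 with them.

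VARS2, the mitochondrial valyl-tRNA synthetase, was the gene with the clearest steps between groups. It measured 11.3, 11.7 and 12.1 CPM in control, 13.2, 12.0 and 14.2 CPM in OE-MMP28, 18.8, 16.4 and 19.4 CPM with anti-IL-8 and 23.2, 21.3 and 20.2 CPM with anti-VEGFA. Control and OE-MMP28 overlapped, the antibody groups lay above both, and every anti-VEGFA library was above every anti-IL-8 library. Against OE-MMP28 the log2 fold change with anti-VEGFA was 0.71 (SE 0.13, edgeR adjusted p 0.0287), and with the GC and length offsets it was 0.43 (adjusted p 0.0993). That call was also lost on FPKM, with the compared groups alone, and without any control library, OE-MMP28 replicate 1 or 2, or anti-VEGFA replicate 1 or 3. Between the antibodies it was 0.24 (SE 0.13, adjusted p 0.389). Against control it was 0.88 (SE 0.13, adjusted p 3.9e-04) with anti-VEGFA and 0.64 (SE 0.14, 0.00476) with anti-IL-8. Both of the latter passed in every alternative and without any single library, with values of 0.57 to 0.94 and 0.40 to 0.71. The VARS2 transcript has a GC content of 59.3%, against a median of 51.2% over the mitochondrial enzymes. VARS2 overlaps GTF2H4 by 5865 bases on the same strand, but GTF2H4 had only 3 to 8 counts against 191 to 391 for VARS2.

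Against control, the anti-IL-8 group had the most calls. Of the 40 genes 12 passed the adjusted threshold, 10 higher and 2 lower, against 20.7% of all genes (9.77% higher and 10.9% lower). Unadjusted, 16 passed (13 higher, 3 lower), against 35.9% of all genes (17.2% and 18.7%), and the libraries did not overlap for 23 of the 40, against 47.8% of all genes. Over the 40 genes the log2 fold change correlated with GC content at 0.76 (0.84 within the cytosolic enzymes), against 0.51 over all tested genes. With the offsets 10 of the 40 passed, against 13.5% of all genes. Past the adjusted threshold, the 10 higher genes were the cytosolic SARS, MARS, YARS, VARS, CARS, FARSA and QARS and the mitochondrial VARS2, TARS2 and CARS2, and the 2 lower genes were RARS and EARS2. SARS measured 430, 373 and 434 CPM with anti-IL-8, above all controls, which reached 263 CPM (0.70, SE 0.12, adjusted p 0.00123). MARS measured 305, 282 and 323 CPM (0.56, SE 0.12, 0.00480). YARS, an enzyme whose fragments act as cytokines, measured 222, 241 and 214 CPM in control and 347, 293 and 334 CPM with anti-IL-8 (0.53, SE 0.12, 0.00744). SARS, MARS and YARS kept these calls in every alternative and without any single library.

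VARS, the cytosolic valyl enzyme, went from 88.0, 86.7 and 72.5 CPM in control to 124, 117 and 141 CPM with anti-IL-8 (0.63, SE 0.15, adjusted p 0.00882). CARS went from 77.6, 86.6 and 77.7 CPM to 123, 103 and 109 CPM (0.47, SE 0.12, adjusted p 0.0126). FARSA, the catalytic subunit of the phenylalanyl enzyme, went from 107, 94.0 and 95.2 CPM to 138, 123 and 155 CPM (0.49, SE 0.15, adjusted p 0.0336). QARS (glutaminyl) went from 85.4, 87.0 and 83.3 CPM to 118, 105 and 113 CPM (0.40, SE 0.13, 0.0445). For each of these 4 enzymes the groups did not overlap. RARS was the 1 cytosolic enzyme past the adjusted threshold that was lower, from 46.8, 43.1 and 48.4 CPM to 34.8, 37.0 and 34.5 CPM (-0.38, SE 0.13, 0.0451). FARSA, at 60.3% GC, QARS, at 55.2%, and RARS, at 41.4%, lost their calls with the offsets (adjusted p 0.197 to 0.539). FARSA also lost its call with library totals, on FPKM, and without any control library or anti-IL-8 replicate 1 or 3. QARS lost it with library totals, without a filter, and without any control or anti-IL-8 library or OE-MMP28 replicate 1. RARS lost it without a filter, on FPKM, and without any library other than OE-MMP28 replicates 2 and 3 and anti-VEGFA replicate 1. VARS lost its call without control replicate 3, and CARS without control replicate 1 or 3 or anti-IL-8 replicate 1. Leaving out a control library reduced the count of 12 to 5 (replicate 3, where 8.48% of all genes passed) or 6 (replicate 1 or 2, 11.1% and 8.13% of all genes), and leaving out anti-IL-8 replicate 1 or 3 to 6 or 7 (7.94% and 8.23%).

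TARS2, the mitochondrial threonyl enzyme, measured 23.5, 21.5 and 20.6 CPM in control, 23.4, 21.2 and 28.7 CPM in OE-MMP28, 31.6, 29.6 and 32.1 CPM with anti-IL-8 and 33.6, 34.7 and 29.2 CPM with anti-VEGFA. Both antibody groups were above all controls, and OE-MMP28 overlapped with control. Against control the log2 fold change was 0.51 (SE 0.14, adjusted p 0.0173) in the anti-IL-8 group and 0.57 (SE 0.14, 0.0136) in the anti-VEGFA group. Both calls were lost without control replicate 2 or 3, and the former also without anti-IL-8 replicate 1 or 3. For the cytosolic counterpart TARS the value in the anti-IL-8 group was -0.32 (SE 0.12, adjusted p 0.0784). EARS2 measured 14.1, 11.7 and 13.0 CPM with anti-IL-8 (-0.54, SE 0.14, 0.0148) and 12.3, 12.7 and 10.3 CPM with anti-VEGFA (-0.67, SE 0.14, 0.00586). Its 9 libraries outside control all lay below the 3 controls, and neither antibody group differed from OE-MMP28 past a threshold (-0.035 and -0.17, adjusted p 0.890 and 0.531). The anti-VEGFA call held without any single library, and the anti-IL-8 call was lost without control replicate 1 or 2 or anti-IL-8 replicate 2 or 3. CARS2 went from 58.3, 62.8 and 62.2 CPM in control to 98.8, 85.5 and 78.8 CPM with anti-IL-8 (0.52, SE 0.15, adjusted p 0.0252). That call was lost with the offsets (0.34, adjusted p 0.110), and without any control library or anti-IL-8 replicate 1. IARS2, the most abundant mitochondrial enzyme, measured 121, 111 and 115 CPM in control and 101, 73.6 and 108 CPM with anti-VEGFA (-0.30, SE 0.14, adjusted p 0.171).

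In anti-VEGFA against control 4 of the 40 genes passed the adjusted threshold, against 11% of all genes (5.6% higher and 5.37% lower). Unadjusted, 11 passed, 7 higher and 4 lower, against 27% of all genes (14.3% and 12.6%), and the libraries did not overlap for 20 of the 40, against 34.3%. The correlation with GC content was 0.52 over the 40 genes and 0.37 over all tested genes, and with the offsets 6 of the 40 passed, against 11.9% of all genes. VARS2, TARS2 and MARS were higher and EARS2 was lower. MARS measured 279, 283 and 249 CPM with anti-VEGFA, again above all controls (0.40, SE 0.12, adjusted p 0.0398). It lost the call with library totals, without a filter, and without any control library, anti-VEGFA replicate 1 or 2, or the first replicate of OE-MMP28 or of anti-IL-8. HARS2, the mitochondrial histidyl enzyme, measured 28.5 to 31.2 CPM in control and 24.6, 19.5 and 23.8 CPM with anti-VEGFA (-0.40, SE 0.13, adjusted p 0.0517, and 0.0354 in DESeq2). It shares 437 bases with HARS on the opposite strand and 639 bases with ZMAT2 on its own. The cytosolic enzymes as a class were near the control level, with 10 higher and 11 lower and a median of -0.044. SARS stayed above the controls at 326, 313 and 291 CPM without passing the adjusted threshold (0.28, SE 0.12, 0.143). Without control replicate 2 or 3 the count of 4 was 2 (4.02% and 5.8% of all genes), without OE-MMP28 replicate 2 it was 8 (15.7%), and without OE-MMP28 replicate 3 it was 7 (14.9%).

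Between the antibody groups, 33 of the 40 genes had lower values with anti-VEGFA than with anti-IL-8, with a median of -0.16 for the cytosolic enzymes. Of the 40, 0 passed the adjusted threshold in edgeR, against 0.199% of all genes, and 8 the unadjusted one, all lower, against 15% of all genes (9.39% higher and 5.62% lower). The libraries did not overlap for 14 of the 40, against 20.9% of all genes. DESeq2 called SARS and YARS, against 1.53% of all genes, limma voom 0 and limma on FPKM 0. The 8 were YARS (-0.43), SARS (-0.41), AARS (-0.44), WARS (-0.31) and GARS (-0.28) of the cytosol, HARS2 (-0.44) and YARS2 (-0.32) of the mitochondria, and the scaffold AIMP2 (-0.54). AIMP2, a scaffold needed to hold the complex together, measured 11.9, 10.6 and 13.8 CPM with anti-IL-8 and 8.26, 8.00 and 8.64 CPM with anti-VEGFA, without overlap (SE 0.16, adjusted p 0.155). It overlaps EIF2AK1 on the opposite strand by 1591 bases, with 126 to 213 counts for AIMP2 and 1428 to 1946 for EIF2AK1. Over the 40 genes the correlation of the log2 fold change with GC content was -0.50 here. With the offsets 9 of the 40 passed the unadjusted threshold, 8 of them lower, against 17.1% of all genes in both directions.

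WARS was the 1 cytosolic enzyme with a negative log2 fold change in OE-MMP28 against control, at -0.16 without passing a threshold. It measured 660, 731 and 585 CPM in control, 579, 610 and 586 CPM in OE-MMP28, 665, 577 and 664 CPM with anti-IL-8 and 553, 502 and 477 CPM with anti-VEGFA. Of these 3 groups, only the anti-VEGFA libraries lay below all controls (-0.37, SE 0.13, edgeR adjusted p 0.0686, 0.0297 in DESeq2 and 0.0272 with the offsets). Anti-VEGFA libraries lay below all controls for 4 of the 21 cytosolic enzymes. Of 38 tested interferon-stimulated genes all were lower in OE-MMP28 than in control, with a median log2 fold change of -3.02, and all 38 passed the adjusted threshold. By library that median was between -3.24 and -2.58 in the 9 libraries outside control. WARS has in its promoter the core of the interferon-stimulated response element, searched on both strands as GAAA and a second GAAA with any 2 bases between, which 4.13% of tested genes with a promoter hold. The element is shown in capitals within 30 bases at chr14:100375383-100375412, on the minus strand like the gene.
WARS: tttcagaaggGAAACTGAAAgaaagagggg
The same letters occur in the promoter of EARS2.
EARS2: ttcagcttggGAAAGCGAAAgcgtggcagg
This site lies at chr16:23557554-23557583, printed on the plus strand opposite to the gene.

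The other genes of the shortage response were compared with control in the antibody groups too. In anti-IL-8 against control 17 of 38 genes of that response passed the adjusted threshold higher and 3 lower, against 9.77% and 10.9% of all genes, with a median of 0.50, while 4 of the 12 synthetases known as its targets passed, all higher, with a median of 0.12. PHGDH rose by 1.28 (SE 0.17, adjusted p 1.1e-04), NUPR1, a stress-induced regulator, by 1.27 (SE 0.35, 0.0189) and EIF4EBP1, which restrains cap-dependent translation, by 1.06 (SE 0.25, 0.00906). The lower genes were ATF3, the cystine carrier SLC7A11 (-0.69) and the amino acid carrier SLC38A2 (-0.58). With anti-VEGFA 4 of the 38 passed higher and 2 lower, against 5.6% and 5.37% of all genes, with a median of 0.22, beside a median of -0.051 for the 12 synthetases. The 9 cytosolic enzymes not known as targets had the larger median in both comparisons, at 0.22 with IL-8 neutralized and 0.13 with VEGFA neutralized. In the former, 4 of these 9 passed the adjusted threshold, 3 upward and 1 downward. In the latter, 0 of the 9 and 1 of the 12 targets passed. For OE-MMP28 against control the order was opposite, with medians of 0.17 for the 9 and 0.35 for the 12. Of the enzymes not known as targets, VARS kept its call in anti-IL-8 against control with the GC and length offsets, and FARSA, QARS and RARS lost theirs. Within the cytosolic enzymes the log2 fold change correlated with GC content at 0.84 in that comparison and at 0.65 in anti-VEGFA against control. Both antibody comparisons share the control libraries, and the differences between the lists were not tested.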

How the data were processed

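RNA was sequenced from TAMs (PMA-treated THP-1 cells) grown in coculture with AsPC-1, and the 12 libraries were assigned to 4 groups from the labels. Per the labels, reads were aligned with HISAT2 2.0.5 and counted with featureCounts 1.5.0-p3. The deposited count values are whole reads per gene, and FPKM values were deposited beside them, scaled by the authors for gene length and library size. The genome build is not given in the sources used here; gene positions in the table match GENCODE 29 on GRCh38. The table also holds 30 columns of the authors' comparisons (fold changes and p-values), which were not used.

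Counts were read in R 4.3.3. Genes were kept by filterByExpr (16046 of 58735), scaled by TMM and fitted with edgeR 4.0.16 in 1 quasi-likelihood model of 4 groups. The 6 comparisons and the test across 4 groups were adjusted by Benjamini-Hochberg over all tested genes. Fold changes use a prior count of 2. A gene was called at an adjusted p of 0.05, and the unadjusted threshold of 0.05 follows the study. Levels are TMM-scaled CPM. GC content came from the longest GENCODE 29 transcript. The GC and length offsets were each library's smooth trend with GC content and then length, fitted on deviations from the mean over the 12 libraries. They therefore also remove such trends where they differ between groups.

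The 40 genes and all lists were chosen with earlier results of these data known, so counts over them are descriptions. Values by library were given for genes past the adjusted threshold in any test and for the highest and lowest of each class; of other lists, at most the 3 largest called changes with a mean of at least 50 counts. Other genes were named after their values were seen. Alternatives were DESeq2 1.42.0, limma 3.58.1 (voom, and FPKM with pseudocounts of 1 and 0.1), library totals, no mitochondrial genes, no filter, a minimum of 10 counts per library, fits of the groups compared, the replicate number as a block, each library left out, and, added after the data were seen, GC and length offsets. edgeR, limma voom, DESeq2 and the offsets were run on simulated counts with a common dispersion, independent libraries and no trend with GC content. That simulation therefore does not cover the composition differences between these libraries. Promoters and figures were handled with pandas 2.3.3 and matplotlib 3.10.9 under Python 3.11.15.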

Additional observations from a re-analysis of the deposited data

How the results depend on the processing

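Under the alternatives 0 called fold changes of single genes reversed. Counted together with the calls of the test across the 4 groups, which have no sign, 183 values lost the call and 562 stayed on their side of the threshold. Of the counts and class medians, 659 values stayed close to those reported and 75 moved. With DESeq2 the genes called of 40 were 6 in OE-MMP28 against control (4.14% of all genes). Against OE-MMP28 they were 9 in anti-IL-8 (13.2%) and 5 in anti-VEGFA (2.67%). In anti-VEGFA against control they were 7 (13.1%), and between the antibodies 2 (1.53%). With library totals they were 1 in OE-MMP28 against control (3.1%) and 8 across the 4 groups (14.6%). Unadjusted, 5 passed between the antibodies (13.4%), and the cytosolic median in anti-IL-8 against control was 0.14. Without a filter anti-IL-8 against OE-MMP28 gave 2 (4.18% of all genes). With the compared groups alone, anti-VEGFA against OE-MMP28 gave 0 (0.00651%) and anti-IL-8 against control 20, where 39.8% of all genes passed. On FPKM, with either pseudocount, anti-VEGFA against OE-MMP28 gave 0 and the 4 groups 9. With pseudocounts of 1 and 0.1, the shares of all genes were 0.38% and 0.243% in the former and 12.1% and 11.5% in the latter. With GC and length offsets OE-MMP28 against control gave 8 (5.93%), anti-VEGFA against OE-MMP28 gave 0 (0.312%), and anti-IL-8 against OE-MMP28 gave 4 unadjusted (10.4%). Cytosolic medians were then -0.058 (anti-IL-8) and -0.18 (anti-VEGFA) against OE-MMP28 and 0.057 in anti-VEGFA against control, the mitochondrial median 0.026 in anti-VEGFA against OE-MMP28, and scaffold medians 0.086 (anti-IL-8) and -0.080 (anti-VEGFA) against OE-MMP28 and -0.19 between the antibodies.

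Same-numbered replicates deviated together in 4 of 18 pairs (correlation -0.16 to 0.237). Of 12 libraries, 4 matched their own number best. These values do not show a pairing by number and cannot exclude one. With the replicate block anti-IL-8 against OE-MMP28 gave 3 calls, against 4.95% of all genes (0% without the block).

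Leaving out 1 library, calls ranged from 0 to 2 in OE-MMP28 against control (1.79% to 3.89% of all genes). Against OE-MMP28 they ranged from 0 to 16 in anti-IL-8 (0% to 25%) and 0 to 10 in anti-VEGFA (0.0486% to 8.48%). Against control they ranged from 5 to 13 in anti-IL-8 (7.94% to 26.2%) and 2 to 8 in anti-VEGFA (4.02% to 15.7%). Across the 4 groups they ranged from 2 to 24 (5.56% to 31.4%). Both 16 and 10 came without OE-MMP28 replicate 3, and the single call in anti-VEGFA against OE-MMP28 was lost without any control, OE-MMP28 replicate 1 or 2, or anti-VEGFA replicate 1 or 3. Unadjusted, calls ranged from 9 to 20 in anti-IL-8 against OE-MMP28 (14.3% to 38.1% of all genes) and 5 to 10 between the antibodies (7.98% to 18.1%). Cytosolic medians ranged from 0.20 to 0.29 in OE-MMP28 against control, -0.068 to 0.11 in anti-IL-8 against OE-MMP28, -0.046 to 0.043 in anti-VEGFA against control and -0.23 to -0.12 between the antibodies. Mitochondrial medians ranged from 0.049 to 0.24 in anti-IL-8 and -0.20 to -0.022 in anti-VEGFA against OE-MMP28, -0.17 to 0.043 in anti-VEGFA against control and -0.24 to -0.089 between the antibodies. Scaffold medians ranged from -0.35 to -0.033 in anti-IL-8 against OE-MMP28, -0.18 to 0.076 in anti-VEGFA against control and -0.24 to 0.10 between the antibodies. The cause of these differences was not tested. SARS2, with 1 to 13 counts a library, gave log2 fold changes with an SE of 0.66 to 0.81.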

Other observations

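Of 16 mitochondrial translation factors, QRSL1 was lower than in control in both antibody groups. QRSL1 is a subunit of the enzyme that converts the glutamyl-tRNA for glutamine, which EARS2 charges, into glutaminyl-tRNA. It averaged 30.7 ± 0.235 CPM in control, 24.5 ± 0.258 in OE-MMP28, 22.0 ± 0.558 in the anti-IL-8 group and 22.2 ± 1.70 in the anti-VEGFA group (mean ± SD, n = 3). Against control it fell by 0.49 on the log2 scale in the anti-IL-8 group (SE 0.12, edgeR adjusted p 0.0100) and by 0.47 in the anti-VEGFA group (SE 0.12, 0.0164), and OE-MMP28 gave -0.33 (SE 0.12, 0.171). TUFM, the mitochondrial elongation factor, was higher with anti-IL-8 (0.57, SE 0.19, adjusted p 0.0431). Of 6 cytosolic elongation factors, EEF2 (0.50, SE 0.15, 0.0320) and EIF5A (0.51, SE 0.17, 0.0416) were higher in that comparison. Of all tested genes, 9.77% were called higher and 10.9% lower in anti-IL-8 against control, and 5.37% lower in anti-VEGFA against control. Over all tested genes the log2 fold change in anti-IL-8 against control correlated with GC content at 0.51.

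Of 16 cell cycle genes 7 were lower and 1 higher in the anti-IL-8 group than in control, 3 were lower in the anti-VEGFA group and 1, RRM2, was lower in OE-MMP28. Of all tested genes 10.9%, 5.37% and 2.64% were called lower in these comparisons. CCNA2, which encodes cyclin A2, fell by 1.22 on the log2 scale in both antibody groups. Of the 13 mitochondrially encoded mRNAs, all had positive log2 fold changes against control in the other 3 groups. The medians were 0.41 in OE-MMP28, 0.35 in the anti-IL-8 group and 0.55 in the anti-VEGFA group. The adjusted threshold was passed by 1, in the anti-IL-8 group, where 9.77% of all genes were called higher. Libraries did not overlap with control for 1 of the 13 in OE-MMP28, 5 in the anti-IL-8 group and 0 in the anti-VEGFA group. All mitochondrially encoded genes together took 6.92%, 17.8% and 10.3% of counts in the anti-VEGFA libraries, against 7.44% to 9.95% in control.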
